A study of Homo sapiens with 4 samples.

Results

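The 42 genes described here encode enzymes of drug, steroid and bile acid metabolism in the liver, with the reductase POR and the receptor AHR that serve them. They were chosen by name, as 19 cytochrome P450 genes, 4 UDP-glucuronosyltransferases (UGT), 10 glutathione S-transferases (GST and MGST), 4 sulfotransferases (SULT), EPHX1, NAT1, TPMT, POR and AHR. Each symbol was found once among the 57979 genes with values. RNA from cells labelled HepG2, a human hepatocellular carcinoma line, was profiled in 2 wild-type and 2 TXNDC9 knockout libraries. The methods of the study describe lentiviral CRISPR-Cas9 with either of 2 guides to the first exon of TXNDC9. Both groups were grown in DMEM with fetal bovine serum. Neither the labels nor the methods say which guide these libraries carry, whether the sequenced cells were 1 clone, what their wild-type controls received, or whether the libraries came from separate cultures. For a protein blot, the study describes sorting of infected cells, with empty vector for the controls, but it does not say so for these libraries. The p-values therefore measure only the spread between these libraries. Values are FPKM, the fragments of a gene divided by transcript length and by a size of the library, so levels of different genes are compared per length. How the library size was set is not given in the sources used here.

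The targeted gene, TXNDC9, was 35.1 and 37.3 FPKM in wild-type against 21.9 and 27.6 FPKM in knockout libraries. Its fold change on the log2 scale was -0.55 (standard error 0.14, adjusted p = 0.0145 in limma). This was under 2-fold and missed the limit of 0.01, so TXNDC9 was not called lower. The FPKM sum of a whole library was also lower in knockout (535973 and 568279) than in wild-type libraries (805816 and 971102). The fall of TXNDC9 in FPKM is therefore not separated from library scaling, and its change in TPM is not given here. The hepatocyte markers went against the label of the cells. None of 10 markers (ALB, APOA1, APOB, TTR, TF, SERPINA1, FGB, AFP, HNF4A and FOXA2) passed 0.449 FPKM in any library, and APOA1 and FOXA2 were listed at 0 in all 4. A listed 0 is not read as absence, since CYB5A, a redox partner of P450 enzymes that most cells express, was also listed at 0 in all 4. Their summed level was 0.446 and 0.733 FPKM in wild-type against 0.0479 and 0.174 FPKM in knockout libraries. Of 6 fibroblast and mesenchymal markers 4 passed 1 FPKM in a library, with sums of 54.1 and 49.6 FPKM in wild-type against 38.4 and 34.5 FPKM in knockout libraries, and COL1A2 was listed at 0. Of 6 blood and endothelial markers 1 did, with sums of 1.33 and 2.03 FPKM against 4.80 and 3.90 FPKM. In these lists PDGFRB, at 1.08 and 0.735 FPKM against 3.0 and 2.62 FPKM, and CDH5, at 0.751 and 1.07 FPKM against 4.26 and 3.14 FPKM, were called higher, both with a mean above 1 FPKM only through the knockout libraries. The part of such cells in the results was not tested. The libraries are therefore named here by their labels only. The hepatocyte markers were under 0.5 FPKM in all 4, so no comparison without such libraries could be made.

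Drug metabolism is usually described in phases. Cytochrome P450 enzymes oxidise drugs, fatty acids and sterols with electrons passed on from NADPH by the reductase POR, and epoxide hydrolase opens reactive epoxides. UGT, GST, SULT, NAT1 and TPMT enzymes then attach glucuronic acid, glutathione, sulfate, an acetyl group or a methyl group, and transporters export the products. AHR is a ligand-activated transcription factor that binds DNA with its partner ARNT and is known for inducing CYP1A1 and CYP1B1. Hepatocytes are rich in most of these enzymes, while GSTP1 is typical of other epithelia and of many cultured tumour lines.

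Promoter windows from RefSeq (build GRCh38.p14, 250 bases before to 50 bases after the start of a gene) were given for 30 of the 42 genes. None was given under the names CYP1B1, CYP2D6, CYP7A1, CYP7B1, CYP8B1, CYP24A1, POR, UGT2B4, MGST2, SULT1A1, SULT1A2 and NAT1. The windows of 3 genes are shown, because AHR and GSTP1 had the largest rise and the largest fall among the tested members and because CYP1A1 is the classical AHR target. They lie at chr7:17298402-17298701 (AHR, plus strand), chr11:67583562-67583861 (GSTP1, plus strand) and chr15:74725479-74725778 (CYP1A1, minus strand). Capitals mark matches, on either strand, to the AHR element core GCGTG, the E-box CACGTG, the antioxidant element core TGACNNNGC, the HNF1 core GTTAAT and TATAAA.
AHR: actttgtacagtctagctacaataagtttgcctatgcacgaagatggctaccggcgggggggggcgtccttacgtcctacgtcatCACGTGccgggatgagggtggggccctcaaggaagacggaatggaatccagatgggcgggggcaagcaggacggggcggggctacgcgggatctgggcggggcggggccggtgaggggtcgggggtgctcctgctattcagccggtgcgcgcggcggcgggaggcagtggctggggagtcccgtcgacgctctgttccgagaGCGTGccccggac
GSTP1: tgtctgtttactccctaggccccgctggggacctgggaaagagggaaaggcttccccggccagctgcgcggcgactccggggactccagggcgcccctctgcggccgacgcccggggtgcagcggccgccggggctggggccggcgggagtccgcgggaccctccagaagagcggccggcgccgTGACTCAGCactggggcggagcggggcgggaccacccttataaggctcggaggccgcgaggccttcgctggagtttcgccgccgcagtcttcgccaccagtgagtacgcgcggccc
CYP1A1: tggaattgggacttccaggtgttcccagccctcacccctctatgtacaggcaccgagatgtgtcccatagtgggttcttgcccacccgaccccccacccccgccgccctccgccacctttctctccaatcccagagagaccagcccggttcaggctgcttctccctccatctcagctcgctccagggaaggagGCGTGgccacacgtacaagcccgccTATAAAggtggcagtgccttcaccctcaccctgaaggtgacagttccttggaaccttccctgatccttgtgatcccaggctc
The AHR window held 1 E-box and 1 GCGTG, the GSTP1 window 1 antioxidant element core, and the CYP1A1 window 1 GCGTG and 1 TATAAA. The match in GSTP1 also holds the AP-1 site TGACTCA. The AHR element core stood in 9 of the 30 member windows and in 36.3% of all 27305 windows of this length. The E-box stood in 2 of 30 and in 7.44% of all windows, and TGACNNNGC in 4 of 30 and in 13.6%. GTTAAT stood in 5 of 30 and in 6.89%, and TATAAA in 6 of 30 and in 11.95%. The AHR element core and the E-box share the letters CGTG, but neither lies within the other. These counts describe letters in the windows and not binding.

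Of the 42 genes, 19 had a mean above 1 FPKM over the 4 libraries and were tested, and 23 did not. The level separated the families. Tested genes included 9 of 10 GST and MGST genes, 2 of 4 SULT genes, 3 of 19 P450 genes and 0 of 4 UGT genes, beside POR, AHR, EPHX1, NAT1 and TPMT. Calls needed an adjusted p under 0.01 in limma together with a fold change of at least 2. GSTP1, GSTK1 and MGST3 fell and AHR rose, and 15 tested genes were not called. The 3 called lower were 15.8% of the 19, beside 15.3% of all 13246 tested genes, and the 1 called higher was 5.26%, beside 14.2% of all. The median log2 fold change was -0.58 over the 19 genes and -0.09 over all tested genes. Both knockout values lay below both wild-type values in 15 of the 19 genes (78.9%, against 45.9% of all tested genes) and above them in 2 (10.5%, against 40.1%).

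**Figure D1:**
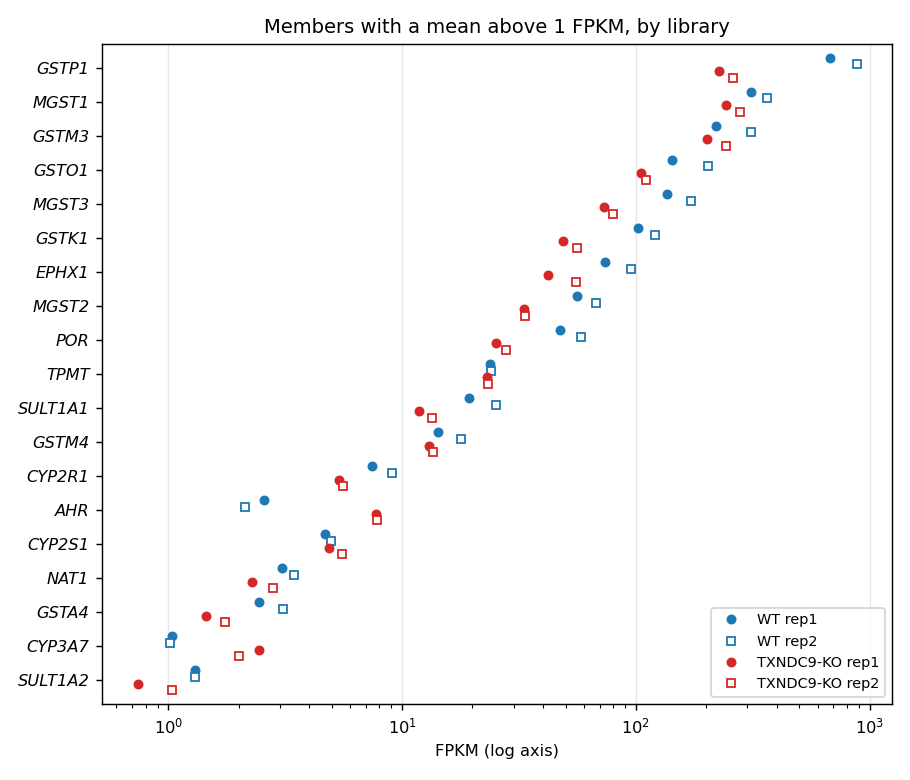
FPKM on a log axis of the 19 members with a mean above 1 FPKM, with circles for replicate 1 and squares for replicate 2 of wild-type (blue) and knockout (red) cells. GST genes hold the highest levels, GSTP1 lies furthest to the left of its wild-type values and AHR furthest to the right.

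AHR (ENSG00000106546, chromosome 7 of hg38, 16916359 to 17346152) was 2.56 and 2.13 FPKM in wild-type against 7.73 and 7.83 FPKM in knockout libraries. The groups did not overlap, and the level in knockout cells was 3.32 times that in wild-type cells. On the log2 scale this change was 1.69 (standard error 0.15, adjusted p = 0.000595 in limma). Transcripts of other annotated genes, among them genes that overlap AHR, held 41.4% of the 50-base stretches of its canonical transcript, so its reads can be shared. In bulk RNA, more cells that express a gene and more RNA per cell cannot be told apart. With values corrected for transcript length and GC content, as described further on, AHR had a log2 fold change of 0.82 (adjusted p = 0.00667 in limma), under 2-fold.

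The genes that act with AHR or are known to respond to it differed in level and direction. CYP1A1, which oxidises polycyclic hydrocarbons, was 0.108 and 0.150 FPKM in wild-type against 0.985 and 0.972 FPKM in knockout libraries. CYP1B1, a related enzyme that also acts on oestrogens, was 0.341 and 0.498 FPKM in wild-type against 0.971 and 0.768 FPKM in knockout libraries. Both were higher in both knockout libraries, but neither passed 1 FPKM in any library and neither was tested. ARNT, the DNA-binding partner, had a log2 fold change of 0.77, the AHR repressor AHRR one of 0.80, and TIPARP, an AHR target that limits the receptor, one of 0.62. These 3 had adjusted p-values from 0.00180 to 0.00428 in limma, with changes of under 2-fold, and were not called. After the correction for length and GC content their log2 fold changes were 0.27 (ARNT), 0.72 (AHRR) and 0.10 (TIPARP). The adjusted p-values were then 0.0599, 0.00649 and 0.467 in limma, in the same order. Rescaled to a common sum (TPM), all 3 were called higher, at 1.45, 1.48 and 1.30. In TPM 4380 of all 13246 tested genes were called higher in limma, with a median log2 fold change of 0.59 over all tested genes.

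POR (ENSG00000127948, chromosome 7, 75899200 to 75986855), the electron donor of microsomal P450 enzymes, was 47.3 and 58.3 FPKM in wild-type against 25.2 and 27.8 FPKM in knockout libraries. The groups did not overlap. The log2 fold change of -0.99 (standard error 0.14, adjusted p = 0.00172 in limma) was just short of 2-fold, and POR was not called. Without wild-type replicate 1 the log2 fold change was -1.14, and without wild-type replicate 2 it was -0.84. In TPM it was -0.31 (adjusted p = 0.0373 in limma). After the correction for length and GC content it was -0.36 (adjusted p = 0.0616 in limma).

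Among 7 P450 genes of drug and xenobiotic oxidation, CYP2S1 and CYP3A7 were tested and neither was called. CYP3A7, the main CYP3A form of fetal liver, was 1.03 and 1.02 FPKM in wild-type against 2.45 and 2.0 FPKM in knockout libraries. The groups did not overlap, with a log2 fold change of 1.04 (standard error 0.24), and the adjusted p of 0.0117 in limma missed the limit. Other annotated genes, first the read-through gene CYP3A7-CYP3A51P, held 71.8% of the 50-base stretches of CYP3A7. CYP2S1, an extrahepatic form, was between 4.69 and 5.54 FPKM in all 4 libraries, and the groups overlapped. CYP3A5 was 0.294 and 0.127 FPKM in wild-type against 0.485 and 0.490 FPKM in knockout libraries. CYP2D6, which oxidises many basic drugs, was 0.397 and 0.203 FPKM in wild-type against 0.145 and 0.147 FPKM in knockout libraries. Transcripts of other genes, CYP2D7 and CYP2D8P among them, held 43.0% of the 50-base stretches of CYP2D6. CYP2E1, the ethanol-oxidising form, did not pass 0.142 FPKM.

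None of the 5 fatty acid and eicosanoid P450 genes reached a mean of 1 FPKM. CYP2U1, a fatty acid hydroxylase, was highest, at 0.446 and 0.270 FPKM in wild-type against 0.679 and 0.798 FPKM in knockout libraries. CYP4F3 and CYP4F11 did not pass 0.267 FPKM and were higher in both knockout libraries. CYP4F2, which hydroxylates vitamin K and leukotriene B4, was 0.0463 and 0.369 FPKM in wild-type libraries but listed at 0 in both knockout libraries. CYP2J2, an arachidonic acid epoxygenase, did not pass 0.0380 FPKM.

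Of 7 P450 genes of sterols, bile acids and vitamins, only CYP2R1, the vitamin D 25-hydroxylase, was tested. It was 7.42 and 9.08 FPKM in wild-type against 5.35 and 5.59 FPKM in knockout libraries, without overlap, and it was not called (log2 fold change -0.58, standard error 0.14, adjusted p = 0.0130 in limma). The bile acid enzymes were at or near 0. CYP8B1 and CYP7B1 were listed at 0 in all 4 libraries. CYP7A1, the rate-limiting enzyme of the classical bile acid pathway, did not pass 0.0101 FPKM, and CYP27A1, which starts the alternative pathway, did not pass 0.0883 FPKM. CYP26A1, which clears retinoic acid, was 0.622 and 0.268 FPKM in wild-type against 0.935 and 0.609 FPKM in knockout libraries, and the groups overlapped. An overlapping annotated gene held 34.0% of the 50-base stretches of CYP26A1. CYP24A1, which degrades active vitamin D, did not pass 0.252 FPKM.

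The UGT genes were at or near 0 as well. UGT2B4 was listed at 0 in all 4 libraries, and UGT1A6 and UGT2B15 in all but knockout replicate 1, where they were 0.0226 and 0.0187 FPKM. UGT2B7, which glucuronidates morphine, was 0.0916 and 0.0983 FPKM in wild-type libraries but listed at 0 in both knockout libraries. Transcripts of other genes held 74.5% of the 50-base stretches of UGT1A6, which shares its last exons with the other UGT1A genes.

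**Figure D2:**
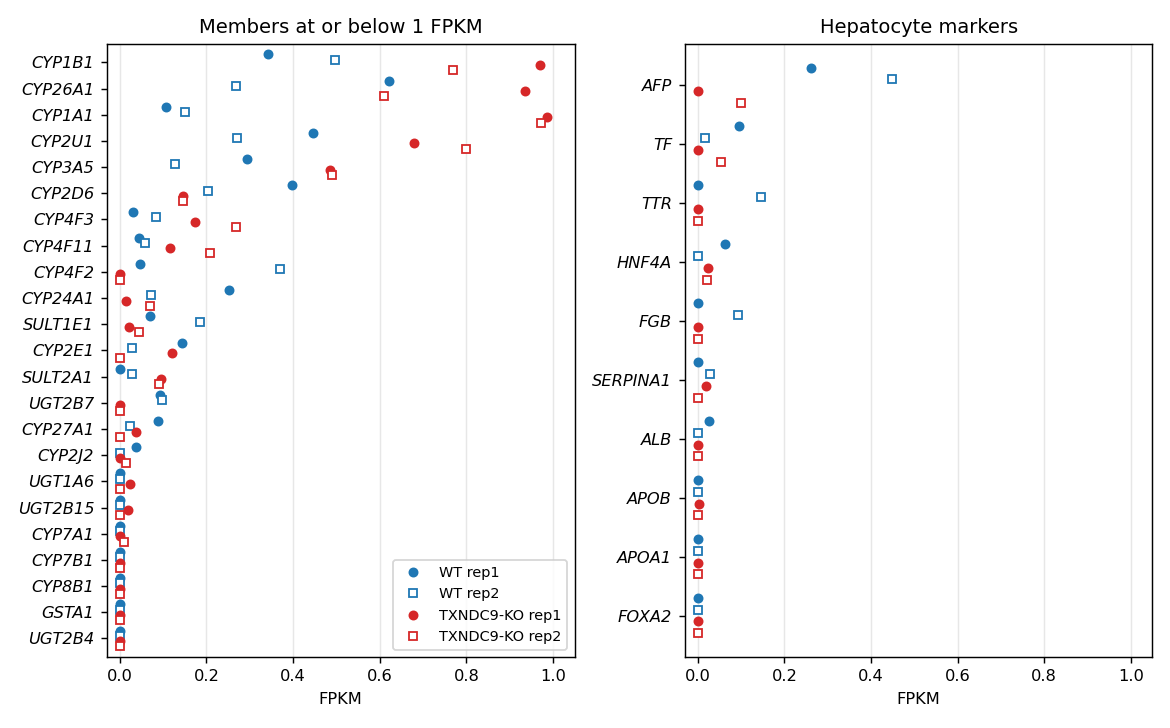
FPKM of the 23 members with a mean of 1 FPKM or less (left) and of the 10 hepatocyte markers (right), on the same scale, with symbols for the 4 libraries. CYP1A1 shows the widest gap between the groups, 11 members stay under 0.1 FPKM in every library, and no marker passes 0.449 FPKM.

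The GST and MGST genes were the most abundant members, and 3 of the 9 tested fell while 0 rose. Their median log2 fold change was -0.74, and both knockout values lay below both wild-type values in 8 of the 9. Over all tested genes these shares were 15.3% called lower, 14.2% called higher and 45.9% without overlap below wild-type. GSTP1 (ENSG00000084207, chromosome 11, 67583742 to 67586656) conjugates glutathione to electrophiles in the cytosol. It was 680 and 878 FPKM in wild-type against 227 and 261 FPKM in knockout libraries. The wild-type mean of 779 ± 141 FPKM (SD, n = 2) was 3.19 times the knockout mean of 244 ± 24.5 FPKM (SD, n = 2), and the groups did not overlap. On the log2 scale the change was -1.67 (standard error 0.18, adjusted p = 0.000845 in limma). It was under 2-fold when libraries were rescaled to TPM (-0.99) or corrected for length and GC content (-0.93), and the call then ended.

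GSTK1 (ENSG00000197448, chromosome 7, 143244093 to 143270854), the form of mitochondria and peroxisomes, was 103 and 121 FPKM in wild-type against 48.8 and 55.9 FPKM in knockout libraries. The change was -1.09 on the log2 scale (standard error 0.13, adjusted p = 0.00121 in limma). MGST3 (ENSG00000143198, chromosome 1, 165631213 to 165661796), a membrane-bound enzyme with glutathione peroxidase activity, was 136 and 173 FPKM in wild-type against 73.0 and 79.7 FPKM in knockout libraries. The change was -1.01 on the log2 scale (standard error 0.15, adjusted p = 0.00211 in limma). In both genes the groups did not overlap. Without wild-type replicate 2 the log2 fold changes were -0.97 for GSTK1 and -0.84 for MGST3, under 2-fold. The correction for length and GC content gave -0.44 for GSTK1 and -0.65 for MGST3, also under 2-fold, and MGST3 missed 2-fold with a pseudocount of 1 (-0.998). None of the 50-base stretches of GSTP1, GSTK1 and MGST3 stood in a transcript of another gene.

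The other GST genes were not called. MGST2, which can make leukotriene C4, was 56.1 and 67.5 FPKM in wild-type against 33.2 and 33.5 FPKM in knockout libraries (log2 fold change -0.88, standard error 0.12, adjusted p = 0.00180 in limma). GSTO1, the omega-class form, was 142 and 204 FPKM in wild-type against 105 and 110 FPKM in knockout libraries, and MGST1, the main membrane-bound form of liver, was 309 and 365 FPKM against 243 and 279 FPKM. Their adjusted p-values were 0.0227 and 0.0738 in limma. GSTM3 was 221 and 309 FPKM in wild-type against 202 and 242 FPKM in knockout libraries, and it was the GST gene whose groups overlapped. GSTM4 lay between 13.0 and 17.8 FPKM and GSTA4, which acts on lipid peroxidation products, between 1.45 and 3.09 FPKM. GSTA1, the abundant alpha-class form of hepatocytes, was listed at 0 in all 4 libraries.

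Scaling a library by 1 factor does not alter the makeup of its GST transcripts. GSTP1 held 40.8% and 41.1% of the summed FPKM of the 10 GST and MGST genes in wild-type libraries and 23.9% and 24.3% in knockout libraries. MGST1 held 18.6% and 17.1% in wild-type and 25.7% and 25.9% in knockout libraries, and GSTM3 13.3% and 14.5% against 21.4% and 22.5%. GSTP1 ranked first in both wild-type libraries and second, after MGST1, in both knockout libraries. The shares of these 3 genes did not overlap between the groups, and neither did those of GSTA4, GSTK1, GSTM4, GSTO1 and MGST3. Those of MGST2 overlapped, and GSTA1 had no listed value above 0. The shares in a library are parts of the same sum, so a change in GSTP1 alters the others. The smallest two-sided p of the exact permutation test with 2 libraries a group is 0.333, so the shares were not tested. The shares are not corrected for length and GC content. With that correction the log2 fold changes of GSTP1, GSTM3 and MGST1 lay closer together, at -0.93, -0.67 and -0.22, against -1.67, -0.24 and -0.37 as deposited, and the change of GSTM3 was then the more negative of GSTM3 and MGST1.

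**Figure D3:**
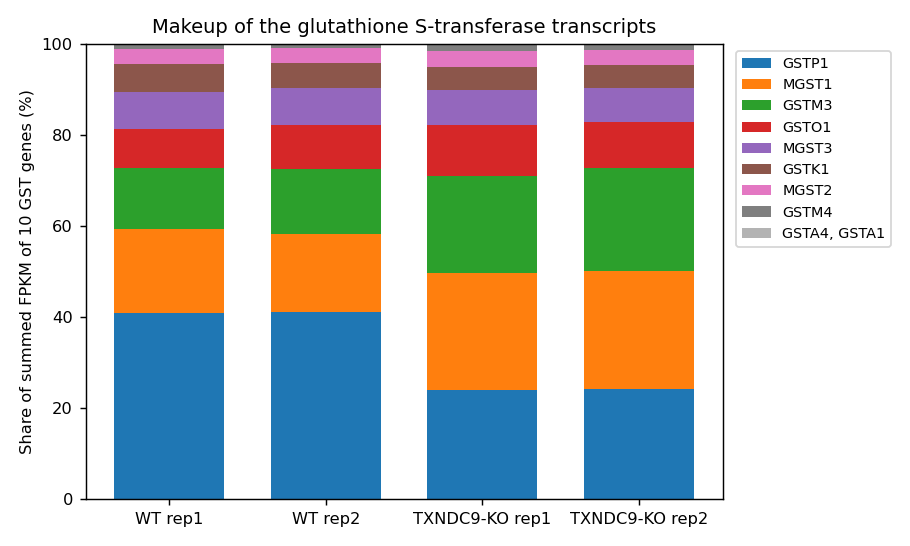
Share (%) of the summed FPKM of 10 GST and MGST genes held by each gene in each library, as stacked bars. GSTP1 holds 40.8% and 41.1% in wild-type and 23.9% and 24.3% in knockout libraries, and MGST1 and GSTM3 take larger shares there.

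Neither of the 2 tested SULT genes was called. SULT1A1, which sulfates phenols, was 19.3 and 25.2 FPKM in wild-type against 11.8 and 13.4 FPKM in knockout libraries (log2 fold change -0.81, standard error 0.16, adjusted p = 0.00605 in limma). SULT1A2 was 1.30 FPKM in both wild-type libraries and 0.742 and 1.04 FPKM in knockout libraries. Transcripts of other genes, among them SULT1A3 and SULT1A4, held 78.4% of the 50-base stretches of SULT1A1 and 59.3% of those of SULT1A2, so the values of both are uncertain. SULT1E1, the oestrogen sulfotransferase, did not pass 0.185 FPKM, and SULT2A1, which sulfates DHEA and bile acids, did not pass 0.0948 FPKM. EPHX1, microsomal epoxide hydrolase, was 73.7 and 95.1 FPKM in wild-type against 42.2 and 55.5 FPKM in knockout libraries (log2 fold change -0.79, standard error 0.19, adjusted p = 0.0119 in limma). NAT1, an arylamine acetyltransferase, was 3.08 and 3.44 FPKM against 2.27 and 2.79 FPKM. TPMT, which methylates thiopurines, was 23.8 and 23.9 FPKM against 23.0 and 23.3 FPKM, a log2 fold change of -0.04 (standard error 0.09). EPHX1, NAT1 and TPMT were not called.

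The size of these changes depended on scaling. Summed over all genes, a library held 805816 and 971102 FPKM in wild-type against 535973 and 568279 FPKM in knockout cells. Rescaling to a common sum (TPM) moved the median log2 fold change from -0.09 to 0.59 over all tested genes, and the calls over all genes from 2021 lower and 1885 higher to 447 lower and 4380 higher. It moved the median of the 19 members to 0.09 and turned the sign of 8 of them (CYP2R1, GSTM3, GSTM4, GSTO1, MGST1, SULT1A2, NAT1 and TPMT). GSTP1, GSTK1 and MGST3 kept their direction in TPM, with log2 fold changes of -0.99, -0.41 and -0.33, all under 2-fold, and lost their calls. The adjusted p of MGST3 in TPM, 0.0156 in limma, also missed the limit. AHR and CYP3A7 were called higher in TPM, at 2.37 (adjusted p = 0.000201 in limma) and 1.70 (adjusted p = 0.00233 in limma). Centring each library on its median moved the calls over all genes to 2601 lower and 1452 higher and gave 5 members called lower, POR and MGST2 being added.

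**Figure D4:**
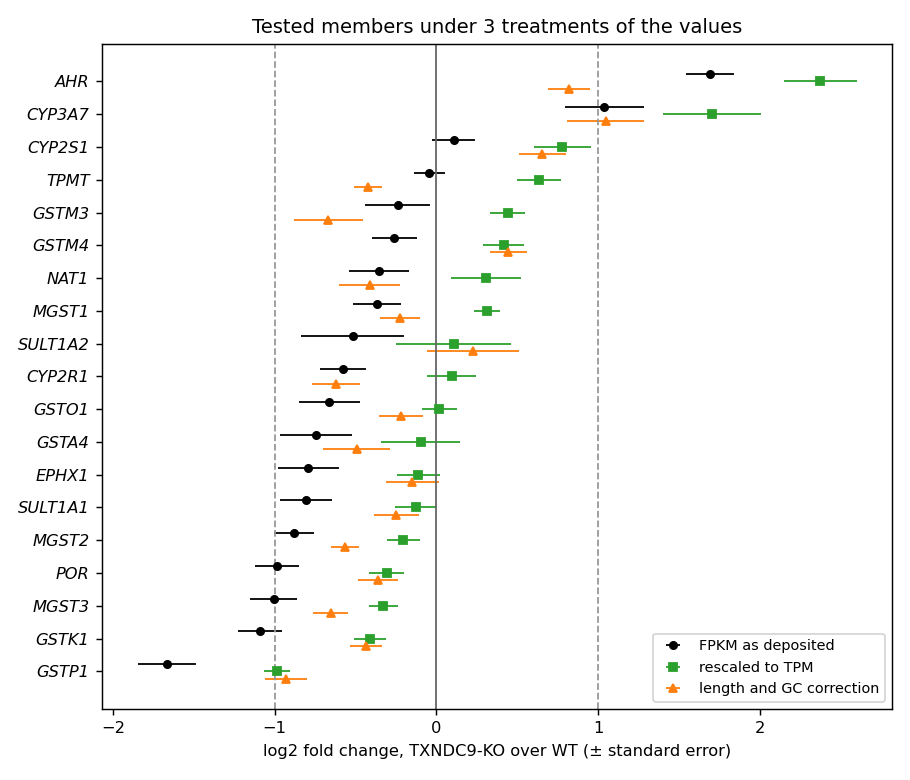
Log2 fold change (knockout over wild-type) of the 19 tested members, with standard errors from limma, for FPKM as deposited (black), TPM (green) and values corrected for transcript length and GC content (orange), with dashed lines at 2-fold. GSTP1 stays lowest and AHR stays above 0 in all 3, while 8 members change sign in TPM.

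Transcript length moved with the result. Over 13112 genes, the Spearman correlation of the log2 fold change was 0.495 with canonical transcript length and -0.462 with its GC content. Genes are not independent replicates, and this is a description. The transcripts of the 3 genes that fell were short, at 741 nt (GSTP1), 1032 nt (GSTK1) and 1158 nt (MGST3), and that of AHR was long, at 6243 nt, against a median of 2866.5 nt over tested genes. Of the 19 tested members 16 were shorter than that median. When each library was corrected for length and GC content, 0 members were called in either direction in limma, and at an unadjusted p under 0.05 with a 2-fold change 0 were lower and 1 was higher. Of the 13112 genes, 1035 were called lower and 767 higher with this correction, and 1249 and 977 at the unadjusted limit. With so few members, 0 is near these shares. GSTP1 then had a log2 fold change of -0.93 (adjusted p = 0.00484 in limma), MGST3 of -0.65 and GSTK1 of -0.44. The part of length and GC content in the results was not tested beyond this correction.

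**Figure D5:**
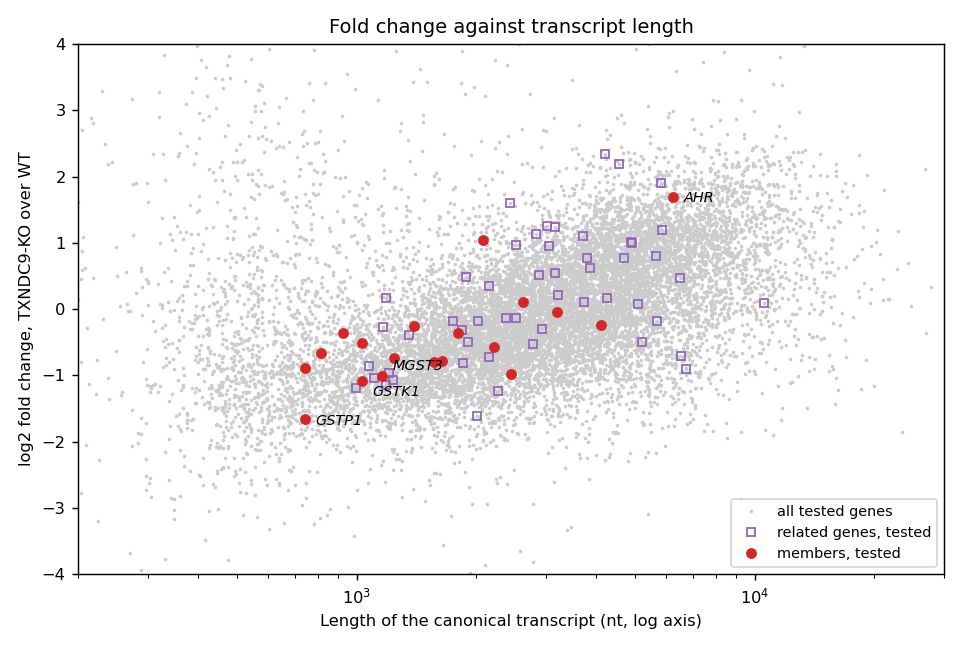
Log2 fold change (knockout over wild-type) against the length of the canonical transcript (nt, log axis) for all tested genes (grey), tested genes of the wider drug metabolism list (purple squares) and tested members (red). GSTP1, GSTK1 and MGST3 lie among the short transcripts that were lower, and AHR among the long ones that were higher, and 104 of 13112 genes fall outside the axes.

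A wider list of 108 genes of drug metabolism held 107 genes found in the table, of which 52 were tested. In limma 5 were called lower (9.62% of the 52, beside 15.3% of all tested genes) and 10 higher (19.2%, beside 14.2%), and their median log2 fold change was 0.10. Transporters of drugs and conjugates had 4 of 7 tested genes called higher and 0 lower. These lists are small, and their counts are read against the same 14.2% and 15.3%. The median change of the 7 was 1.19 on the log2 scale, and their median transcript length was 5693 nt. ABCG2, an efflux pump, rose from 2.59 and 2.28 FPKM to 11.9 and 13.5 FPKM (log2 fold change 2.34, standard error 0.14). ABCC2, which exports glutathione and glucuronide conjugates into bile, rose from 10.1 and 8.67 FPKM to 32.6 and 38.1 FPKM (log2 fold change 1.90, standard error 0.13). SLCO1B3, an uptake carrier of hepatocytes, rose from 7.42 and 7.73 FPKM to 18.9 and 17.7 FPKM. In these 3 genes the groups did not overlap. After the correction for length and GC content ABCG2 (1.69) and ABCC2 (1.20) stayed called higher, and SLCO1B3 (0.76) did not.

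Of 14 tested P450, UGT, GST and SULT genes outside the 42, 3 were called higher and 2 lower. CYP26B1, which clears retinoic acid, was 0.492 and 0.334 FPKM in wild-type libraries and 2.30 and 2.12 FPKM in knockout libraries. It passed the filter on the mean only through the knockout libraries, so its call is no independent support. CYP39A1, an oxysterol hydroxylase, rose from 1.27 and 0.815 FPKM to 3.08 and 3.55 FPKM. GSTZ1, an enzyme of tyrosine breakdown, fell from 24.0 and 30.5 FPKM to 11.6 and 12.6 FPKM. GSTT2B fell from 8.39 and 8.52 FPKM to 3.64 and 4.57 FPKM, and its near-identical neighbour GSTT2 can share its reads. After the correction the log2 fold changes of CYP39A1, GSTZ1 and GSTT2B were 1.37, -0.44 and -0.34, with adjusted p-values of 0.0130, 0.0272 and 0.139 in limma, and none was called. GSTZ1 and GSTT2B also lost their calls in TPM, at -0.48 and -0.37. Among 12 tested other drug-metabolising enzymes 2 were called lower and 0 higher. NNMT, nicotinamide N-methyltransferase, fell from 157 and 256 FPKM to 60.9 and 70.7 FPKM. It stayed called lower after the correction (-1.39) and not in TPM (-0.93). Among 10 genes that supply cosubstrates 3 were called higher and 0 lower. In TPM 0 of the 52 were called lower in limma (0 also at an unadjusted p under 0.05 with a 2-fold change) and 22 higher. Over all 13246 tested genes, 447 were called lower in TPM (523 at the unadjusted limit) and 4380 higher. After the correction for length and GC content 4 of the 52 were called lower and 4 higher, beside 1035 and 767 of 13112 genes.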

How the data were processed

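Polyadenylated RNA was sequenced from 2 wild-type and 2 TXNDC9 knockout libraries. The authors mapped reads to hg38 with TopHat2 and an Ensembl annotation, without new junctions, and deposited FPKM per gene and library from Cuffdiff of the Cufflinks suite. Versions, library normalization and strand setting are not given in the sources used here. The depth is unknown, so no intervals or detection limits are given. The authors' columns of averages, fold changes, p-values and q-values were not used.

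Of 231916 lines, 57979 held values, and each identifier occurred 4 times. Symbols stood beside their values, and the identifiers, which were out of register with them, were put back in order. All 42 member symbols were found. Of 56935 identifiers known in GENCODE release 44, 34949 then stood with the symbol given there, against 1 before. Lengths and GC content follow the identifier. Positions, lengths, GC content and the share of 50-base stretches found in transcripts of other genes came from GENCODE release 44.

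Log2(FPKM + 0.1) was compared with limma 3.58.1 in R 4.3.3 (trend in the prior variance, Benjamini-Hochberg adjustment) over all 13246 genes with a mean above 1 FPKM, in all 4 libraries and without a replicate block. Fold changes on this scale understate those of low genes. Calls needed at least a 2-fold change and an adjusted p under 0.01. The correction fitted a loess surface of length and GC content (span 0.3) to each library. Steps were tested on simulated data of 13112 genes with a common spread, 200 of them changed by 2.5 on the log2 scale. All 200 were recovered in limma with 0 false calls. With an added length trend 198 were recovered with 1457 false calls, and after the correction 200 with 0. The added trend was linear in log2 length, which the correction itself fits, and the changed genes were drawn at random. Changes that go along with length were not simulated, so this recovery does not cover them. Smaller changes, such as those of the members, and a GC trend were not simulated. The members and lists were chosen with earlier results of these data known. All 42 members are given, and of the wider list the 5 largest called falls and rises without overlap, some of which are not reported here; other genes were named after their values were seen. Alternatives are listed in the closing section. No protein sequences were used here. Python 3.11.15, pandas 2.3.3, numpy 2.4.6 and matplotlib 3.10.9 were used.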

Additional observations from a re-analysis of the deposited data

How the results depend on the processing

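Other pseudocounts (1 and 0.01), other filters (none, or a mean above 5 FPKM), an adjusted p under 0.05, TPM, median centring, no trend in the variance, a replicate block, the length and GC correction with and without the block, and leaving out each library were tried, and limma was the test in each. The main counts were 3 members lower and 1 higher, 5 and 10 genes of the wider list, and 2021 and 1885 of all genes. Members called lower became 2 with a pseudocount of 1, where MGST3 was -0.998, 0 in TPM, 5 with centring, and 0 with the correction, alone or with the block. Members called higher became 3 without a filter, 2 at an adjusted p under 0.05, 2 in TPM, 2 without the trend, and 0 with the correction, alone or with the block. With the correction and the block together, 0 members were lower and 1 higher at an unadjusted p under 0.05 and 2-fold. Wider-list genes called lower became 0 in TPM, 8 with centring, and 2 with the correction and the block, and those called higher 22 in TPM, 4 with the correction and 3 with the correction and the block. Over all genes, lower calls became 447 in TPM, 1035 with the correction and 957 with the correction and the block, and higher calls 1220 above 5 FPKM, 4380 in TPM, 767 with the correction and 590 with the correction and the block. The median log2 fold change of the 19 members, -0.58, became -0.51 with a pseudocount of 1, -0.66 above 5 FPKM, 0.095 in TPM, -0.72 with centring and -0.36 with the correction, alone or with the block. Single genes changed sign in TPM (CYP2R1 0.095, GSTM3 0.44, GSTM4 0.42, GSTO1 0.017, MGST1 0.31, SULT1A2 0.11, NAT1 0.31, TPMT 0.64), with centring (CYP2S1 -0.036) and with the correction (GSTM4 0.45, SULT1A2 0.23, the same with the block).

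Leaving out a library left 1 in its group, which was assumed to vary like the other group. Members called lower then ranged from 0 to 5 and higher from 0 to 1, genes of the wider list from 0 to 10 and from 0 to 11, all genes from 0 to 2633 and from 0 to 2136, and the members' median from -0.72 to -0.43. Without wild-type replicate 1 POR and MGST2 were added to the members called lower, and without wild-type replicate 2 only GSTP1 was called lower and GSTM3 had a log2 fold change of 0.0014, against -0.48 without wild-type replicate 1. Without knockout replicate 1 or 2 no gene reached an adjusted p under 0.01 in limma (lowest 0.016 and 0.0232). At an unadjusted p under 0.05 and 2-fold, 2022 and 2290 genes were lower and 2066 and 1973 higher, among them 1 and 4 members lower and 1 and 2 higher, and 5 and 5 genes of the wider list lower and 13 and 9 higher. The labels do not say whether the replicate numbers pair the libraries. The correlation of same-numbered deviations was -0.0904 across genes, which does not settle this. Summed FPKM was higher in replicate 2 than in replicate 1 of both groups. A replicate block changed the standard error of GSTM3 from 0.20 to 0.13 and that of CYP3A7 from 0.24 to 0.31. With the block 3 members were called lower and 1 higher, 6 and 10 genes of the wider list, and 2146 and 1960 of all genes. With no filter limma warned that many residual variances were 0. Groups of 2 libraries allow no test for an outlier, and without counts the depth limits the 23 low genes by an unknown amount.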

Other observations

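Among genes of the wider list that were called higher but fall outside the naming rule, CYP51A1, the lanosterol demethylase of cholesterol synthesis, rose from 28.9 and 29.8 FPKM in wild-type to 66.7 and 72.8 FPKM in knockout libraries (log2 fold change 1.25, standard error 0.10). The 3 cosubstrate genes called higher serve different conjugations. PAPSS2, which makes the sulfate donor, rose from 15.9 and 16.2 to 32.5 and 37.2 FPKM. GCLM, the modifier subunit of the first enzyme of glutathione synthesis, rose from 9.04 and 8.53 to 16.9 and 18.7 FPKM, and MAT2A, which makes the methyl donor S-adenosylmethionine, from 119 and 88.0 to 217 and 230.0 FPKM. ABCC4, an exporter of conjugates, rose from 6.16 and 5.21 to 13.6 and 12.7 FPKM. The transcripts of these 5 genes were between 2817 nt (MAT2A) and 5855 nt (ABCC4) long, against the median of 2866.5 nt over tested genes. After the correction for length and GC content MAT2A stayed called higher in limma, with a log2 fold change of 1.006. CYP51A1 (0.90), PAPSS2 (0.72), GCLM (0.20) and ABCC4 (0.42) did not. These genes were chosen after their values were seen.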
